A study of Mus musculus with 6 samples.

Results

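The miR-23, miR-27 and miR-24 microRNAs (miRNAs) were described in small RNA libraries of mouse heart cardiomyocytes. Members were the mature rows of the deposited count table whose name, without arm and copy number, was miR-23a, miR-23b, miR-24, miR-27a or miR-27b. The rule found 11 of 1974 mature rows, with 5 arms from the 3′ side of a hairpin (3p) and 6 from the 5′ side (5p). All 6 libraries came from C57BL/6 mice. They were 2 libraries of wild-type adults, 2 of adult LncSync-/- mice (here the knockout, which lacks the long non-coding RNA lncSync), and 1 library of each genotype at the embryonic stage e13.5. The sources used here give neither the adults' age, nor how the null allele was made, nor how many animals went into a library. Since replicates are not described as separate animals, each p-value reflects only how far these libraries differ, and that spread may be technical.

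The members come from a pair of paralogous clusters, each a run of 3 hairpins on the plus strand that is transcribed as 1 primary RNA and then cut into single hairpins. Dicer releases a 5p and a 3p arm from each hairpin, and in these clusters the 3p arms are the ones usually loaded into Argonaute as guides. The clusters are known for their part in angiogenesis and in cardiac and skeletal muscle: miR-23a lowers the muscle ubiquitin ligase MuRF1 and is linked to cardiac hypertrophy, miR-24 represses the pro-apoptotic gene Bim, and miR-27 represses the adipogenic regulator PPARγ.

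In GRCm38, the assembly also called mm10, the first cluster held Mir23a (chr8:84208518-84208592), Mir27a (chr8:84208672-84208758) and Mir24-2 (chr8:84208815-84208921), in 404 bases. In GENCODE M21 no other gene overlapped Mir23a or Mir27a, and Mir24-2 overlapped an exon of the lincRNA Gm26532. The second cluster held Mir23b (chr13:63300484-63300557), Mir27b (chr13:63300712-63300784) and Mir24-1 (chr13:63301208-63301275), in 792 bases inside the aminopeptidase gene Aopep, listed by GENCODE as 2010111I01Rik. Mir23b was intronic in all 9 spanning transcripts of that gene, while Mir27b overlapped an exon in 1 of 9 and Mir24-1 in 4 of 11. All 3 also lay in an intron of Fancc, a gene on the opposite strand. On the opposite strand, miR-3074 hairpins lie against both copies of Mir24, and their 3 mature rows summed to 9 to 69 counts in a library.

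Mature sequences were found in the RefSeq table (GRCm38.p6) for 10 of the 11 members, miR-23b-3p being the other. The 3p arms carry most of the reads, so their sequences are shown first, with the seed (bases 2 to 8, which pair with targets) in capitals.
miR-23a-3p: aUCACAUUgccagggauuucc
miR-27a-3p: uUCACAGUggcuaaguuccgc
miR-27b-3p: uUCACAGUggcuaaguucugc
miR-24-3p: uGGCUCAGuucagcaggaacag
The miR-27 arms share a seed and differ at 1 base, C19U from miR-27a-3p to miR-27b-3p, counted from the 5′ end. Reads that stop before that base fit both, and no source used here says how the authors assigned them, so counts of the a and b forms of the 3p arms are uncertain. The 3p arm of miR-24 is the same molecule from both loci. Among 1679 mature names in the table, 4 others have its seed (miR-5124b, miR-6369, miR-6410 and miR-6413), with 0 counts in total here.

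The 5p arms of miR-24 do differ between loci. They share their first 16 bases, and capitals mark bases that differ from the other arm at the same position.
miR-24-2-5p: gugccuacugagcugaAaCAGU
miR-24-1-5p: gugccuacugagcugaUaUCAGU
The 5p arm of miR-27a is shown because it was the member that did not follow the rest, again with its seed in capitals.
miR-27a-5p: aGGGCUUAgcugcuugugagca

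Mature counts totalled 14347091 to 17933518 in the adult libraries, 8944552 (wild type) and 2671957 (knockout) at e13.5. The 3-count limit of a 0 was therefore 0.167 to 0.209 counts-per-million of mature reads (CPM) in adults, and at e13.5 0.335 CPM (wild type) and 1.12 CPM (knockout), for counting error only. Cardiomyocyte miRNAs (miR-499, miR-208a, miR-208b, miR-133a, miR-133b and miR-1a) took 28.2 to 39.5% of counts in adults and 9.86 to 14.6% at e13.5. Of the 13 arms of this list, 1 to 5 were at 0 in a library, and miR-1a-3p, miR-133a-3p, miR-499-5p and miR-208a-3p were at 0 in no library. miR-133a-3p had 121551 to 182883 CPM in adults, and 1925 CPM (wild type) and 1479 CPM (knockout) at e13.5. The stages overlapped in miR-1a-3p, at 81490 to 256336 CPM in adults, and 139959 CPM (wild type) and 94848 CPM (knockout) at e13.5.

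Of all mature counts, the 11 arms held 7.51% and 8.31% in adult wild types, 8.25% and 5.91% in adult knockouts, and 0.735% (wild type) and 0.578% (knockout) at e13.5. All 4 adult libraries lay far above both e13.5 libraries, and the adult genotypes overlapped. The adult mean was 7.49% ± 1.12 (SD, n = 4), and the e13.5 mean 0.656% ± 0.111 (SD, n = 2). In bulk RNA, fewer cells of a type and less RNA per cell cannot be told apart.

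Among the guide arms, miR-24-3p had the highest adult mean, at 17865 and 29812 CPM in wild types and 28001 and 18447 CPM in knockouts. At e13.5 it had 1600 CPM (wild type) and 1957 CPM (knockout). In the first wild type it stood below miR-23a-3p. Its rank among all mature miRNAs was 8 to 16 in adults and 45 and 46 at e13.5.

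miR-27b-3p followed in adults, at 16565 and 18614 CPM in wild types and 17408 and 14912 CPM in knockouts. At e13.5 it had 4475 CPM (wild type) and 2508 CPM (knockout). It was the highest member in both embryonic libraries, at ranks 21 and 35.

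miR-23a-3p had 20588 and 16386 CPM in adult wild types and 16291 and 12765 CPM in adult knockouts, but at e13.5 331 CPM (wild type) and 323 CPM (knockout). miR-23b-3p had 14839 and 12431 CPM in adult wild types, 14399 and 8182 CPM in adult knockouts, and 509 and 425 CPM at e13.5. miR-27a-3p was the least abundant 3p arm in adults, at 4678 and 5313 CPM in wild types and 5840 and 4298 CPM in knockouts, with 325 and 388 CPM at e13.5. For each of these arms the e13.5 libraries were close to each other and more than 10-fold below the lowest adult.

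All mature forms are 21 to 23 bases long where the sequence is known, so read counts need no length correction. The order is one of reads, which adapter ligation and amplification can favour unequally. In adults the order by mean CPM was miR-24-3p, miR-27b-3p, miR-23a-3p, miR-23b-3p and miR-27a-3p. The ranges of neighbours overlapped down to miR-23b-3p, and that of miR-27a-3p lay below all others. At e13.5 the order was miR-27b-3p, miR-24-3p, miR-23b-3p, miR-27a-3p and miR-23a-3p, with overlapping ranges for the last pair alone. miR-23a-3p thus stood in the third place in adults and in the fifth at e13.5.

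The 5p arms were rarer. miR-24-2-5p led them in adults at 387 CPM ± 24.9 (SD, n = 4), against 63.4 CPM (wild type) and 54.3 CPM (knockout) at e13.5. miR-24-1-5p had 56.3 CPM ± 8.30 (SD, n = 4) in adults and 25 and 4 counts in the e13.5 wild type and knockout. miR-27b-5p had 53.6 CPM ± 6.35 (SD, n = 4) in adults and 13.4 and 18.3 CPM at e13.5. The miR-23 5p arms were at the edge of detection. miR-23b-5p had 68 to 280 counts in adults and 2 and 3 at e13.5, and miR-23a-5p had 21 to 101 counts in adults and 0 in both e13.5 libraries.

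miR-27a-5p did not share this pattern. It had 22.9 and 26.9 CPM in adult wild types, 24.1 and 24.2 CPM in adult knockouts, and at e13.5 it had 31.1 CPM (wild type) and 103 CPM (knockout). Both e13.5 libraries were above all adults on this scale, from 278 and 274 counts. With TMM, the scaling of the tests below, adults had 25.08 to 42.64 CPM. On that scale the e13.5 wild type stood just below them (25.03 CPM) and the e13.5 knockout above (47.35 CPM). The e13.5 knockout library was also the highest in erythroid miR-451a, at 7547 CPM against 378 CPM in its wild-type counterpart and 45.1 to 402 CPM in adults. Summed over miR-451a, miR-144, miR-486a and miR-486b it was not the highest, at 1.43% of counts. That sum was 1.57% in adult wild-type replicate 1 and 2.23% in adult knockout replicate 1. The part of the miR-451a difference in the miR-27a-5p value was not tested.

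**Figure D1:**
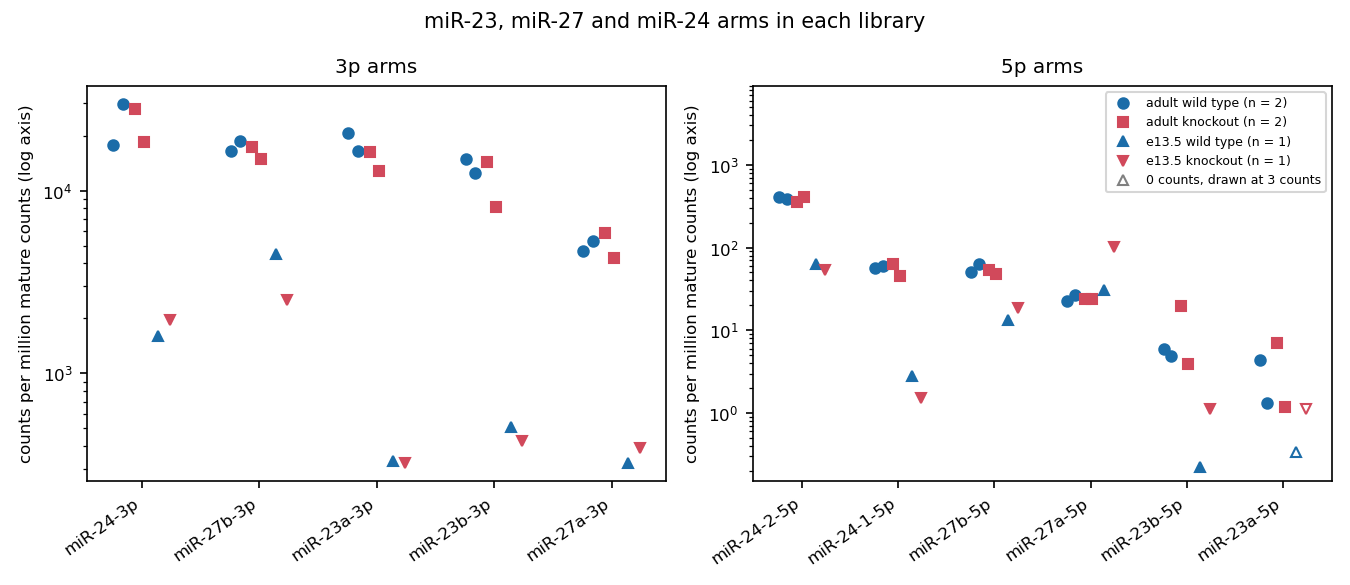
Counts-per-million of mature reads (CPM, log axis) of each arm in each of the 6 libraries, 3p arms on the left and 5p arms on the right; each point is 1 library, and open points mark 0 counts, drawn at 3 counts. The e13.5 points lie below all adult points for 10 of the 11 arms, miR-27a-5p being the exception.

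The first comparison asked how the clusters differ between e13.5 and adult cardiomyocytes, with genotype in the model (edgeR quasi-likelihood test over 6 libraries, Benjamini-Hochberg adjusted over all 679 miRNAs tested). Of the 11 members, 10 were lower at e13.5, none was higher, and 1 did not pass. Over all miRNAs tested, 28.4% were called lower and 57.7% were called in either direction. The members' CPM ranges did not overlap, with e13.5 lower, for 10 of 11 arms, and over all miRNAs for 24.9%. The median log2 fold was −4.88 over the members and −0.06 over all miRNAs.

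Among guide arms, the miR-23 pair had the largest estimates. The log2 fold was −6.70 (SE 0.58, edgeR adjusted p = 9.11e-05) for miR-23a-3p and −5.75 (SE 0.56, adjusted p = 9.98e-05) for miR-23b-3p. It was −4.88 (SE 0.54, edgeR adjusted p = 0.00017) for miR-27a-3p and −4.8 (SE 0.57, adjusted p = 0.000197) for miR-24-3p. miR-27b-3p had the smallest estimate of the 3p arms, −3.33 (SE 0.59, edgeR adjusted p = 0.00172), although members' folds were not tested against each other. All 5 were lower in 2 of 2 e13.5 libraries than in each adult library.

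Of the 5p arms, miR-24-1-5p, from the chromosome 13 cluster, fell by 5.64 on the log2 scale (SE 0.74, edgeR adjusted p = 0.00032), and miR-24-2-5p, from chromosome 8, by 3.79 (SE 0.62, adjusted p = 0.00108). miR-27b-5p fell by 2.86 (SE 0.57, edgeR adjusted p = 0.00286) and miR-23b-5p by 4.88 (SE 0.93, adjusted p = 0.00236). From pooled counts, miR-23b-5p was 18.7 times higher in adults (95% counting interval 7.97 to 57.9). miR-23a-5p also passed (edgeR adjusted p = 0.00556). Its fitted fold depends on the prior count, and against a floor of 3 counts over the e13.5 group it was at least 12.9-fold lower there.

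miR-27a-5p stood at 0.12 on the log2 scale (SE 0.52, edgeR adjusted p = 0.868). With 1 library left out it ran from −0.28 (without the e13.5 knockout, the library whose loss turned its sign) to 0.74 (without adult knockout replicate 2), and none of these passed. Scaling moved all folds. TMM, the scaling used here, put the median fold of all miRNAs at −0.06, against 0.72 for DESeq2's size factors and 0.93 for library totals. With library totals the log2 fold was −5.64 for miR-23a-3p, −2.32 for miR-27b-3p and 1.29 for miR-27a-5p (edgeR adjusted p = 0.12). The share of all calls that were higher at e13.5 moved likewise, from 199 of 392 with TMM to 263 of 383 with library totals.

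Within 1 genotype a single e13.5 library stood against 2 adults, so the spread came from the adult pair alone and these fits have no embryonic replicate. With knockout libraries alone 7 of 11 members were called lower, against 13.7% of all miRNAs. miR-23a-5p, miR-23b-5p and miR-27b-5p did not pass there, at log2 folds of −8.47, −4.22 and −2.57 (edgeR adjusted p = 0.0611, 0.0657 and 0.104), the first from 0 counts at e13.5. With wild-type libraries alone 10 were called lower, against 29.5% of all.

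**Figure D2:**
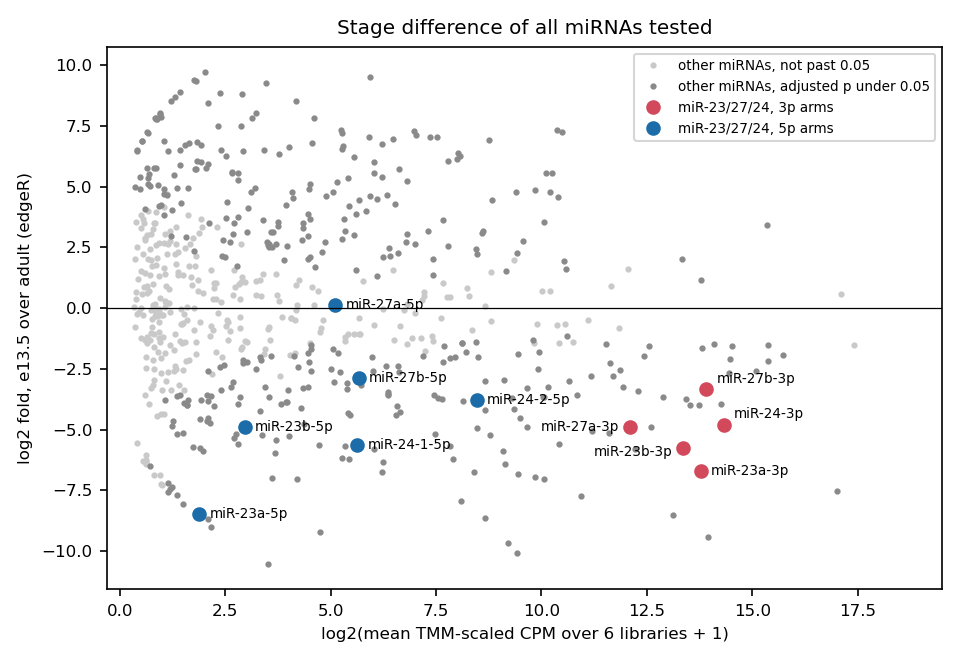
Log2 fold between e13.5 and adult libraries (vertical axis, edgeR, TMM-scaled) against abundance (horizontal axis, log2 of mean TMM-scaled CPM plus 1) for the 679 miRNAs tested, with the 11 arms named. The 3p arms lie between −6.70 and −3.33, and miR-27a-5p lies at 0.12.

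Of the 10 tested arms of the cardiomyocyte miRNAs, 8 were called lower at e13.5, 1 was higher and 1 did not pass. Their median log2 fold was −4.06. The arm that did not pass was miR-1a-3p (log2 fold −1.54, edgeR adjusted p = 0.106). Markers of other cell types also differed between stages. Smooth muscle and fibroblast miRNAs (miR-143, miR-145a, miR-145b, miR-199a, miR-199b and miR-214) took 7.48 to 11.8% of counts in adults and 21.5 to 35.6% at e13.5, with 1 of 10 arms called higher and 3 lower. Most of that e13.5 share was miR-143-3p, at 349750 CPM (wild type) and 210707 CPM (knockout). This arm was not called (log2 fold 0.60, edgeR adjusted p = 0.37). After TMM scaling the summed share was 8.29 to 17.5% in adults, 28.7% in the e13.5 wild type and 9.92% in the e13.5 knockout. Endothelial miR-126a and miR-126b took 1.65 to 3.11% and 1.63 to 1.90%, with 2 of 2 tested arms lower after TMM scaling. Leukocyte miRNAs (miR-142a, miR-142b, miR-223, miR-150, miR-155 and miR-146a) took 0.177 to 0.280% and 0.0131 to 0.0192%, with 5 of 8 tested arms lower. Erythroid miRNAs (miR-451a, miR-144, miR-486a and miR-486b) took 0.565 to 2.23% in adults, and at e13.5 0.0748% (wild type) and 1.43% (knockout). Their arms were split, with 2 called higher at e13.5, miR-451a (log2 fold 2.76) and miR-144-3p (3.13). The 2 called lower were miR-486a-5p (−3.75) and miR-486a-3p (−3.71). miR-451a had only 45.1 to 402 CPM in adults, so the adult sum was mostly other arms of the list. In a library, 0 to 1 of 10 smooth muscle arms, 1 to 2 of 4 endothelial, 2 of 11 leukocyte and 0 of 5 erythroid arms were at 0. The lead markers miR-143-3p, miR-126a-3p, miR-142a-3p and miR-451a were at 0 in no library. Their part in the stage difference was not tested, and stage cannot be told apart from any difference in dissection or library batch, neither of which the labels give.

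Other miRNAs described in cardiac hypertrophy and remodelling gave a background for the same contrast. This list (miR-21a, miR-22, the miR-29 family, miR-132, miR-195a, miR-199a, miR-208a, miR-208b, miR-212, miR-214, miR-221, miR-222 and miR-499) had 30 tested arms. Of these, 22 were lower at e13.5, 2 were higher and 6 did not pass, with a median log2 fold of −3.14. The summed share of all 31 arms of the list ran the other way, at 3.85 to 5.17% in adults and 16.2 to 19.7% at e13.5. Most of that e13.5 share was miR-21a-5p alone, at 151526 CPM (wild type) and 189941 CPM (knockout), against 4113 to 10913 CPM in adults. The higher ones were miR-208b-3p, from an intron of the fetal myosin gene Myh7 (log2 fold 4.59, edgeR adjusted p = 0.00461), and miR-21a-5p, abundant in fibroblasts (3.42, adjusted p = 0.00141). Among the lower ones, miR-29a-3p, which represses collagen genes, had −9.43 (edgeR adjusted p = 5.67e-05) and miR-22-3p had −3.66 (adjusted p = 0.00306).

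Shares within a library need no scaling factor and show how the paralogues and arms differed by stage. miR-23a-3p made up 58.1% and 56.9% of miR-23a-3p plus miR-23b-3p in adult wild types and 53.1% and 60.9% in adult knockouts. It made up 39.4% in the e13.5 wild type (Wilson 95% interval 38.3 to 40.5) and 43.2% in the e13.5 knockout (41.0 to 45.4). The a form was thus the larger part in all 4 adult libraries and the smaller part in both e13.5 libraries.

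miR-27a-3p made up 22.0% and 22.2% of the miR-27 3p arms in adult wild types and 25.1% and 22.4% in adult knockouts. Its e13.5 share was 6.77% for the wild type (Wilson 95% interval 6.53 to 7.01) and 13.4% for the knockout (12.7 to 14.2). For miR-23 and miR-27 alike, the form from chromosome 8 took a smaller share at e13.5, and the ranges did not overlap.

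The 5p arms of miR-24, which separate the loci, went the other way. miR-24-2-5p, from chromosome 8, made up 84.7 to 90.0% of the pair in adults, 95.8% in the e13.5 wild type (Wilson 95% interval 93.8 to 97.1) and 97.3% in the e13.5 knockout (93.3 to 98.95). The e13.5 values rest on 592 and 149 counts. They lay above all adult values.

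Arm usage of miR-27a differed most among the members. The 5p arm held 0.486% and 0.504% of miR-27a arms in adult wild types and 0.411% and 0.560% in adult knockouts. It held 8.73% in the e13.5 wild type (Wilson 95% interval 7.80 to 9.77) and 20.9% in the e13.5 knockout (18.8 to 23.2). Both e13.5 libraries lay above all adults, and the knockout above the wild type. The 3p arm stayed the larger in every library.

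The other hairpins kept a small 5p share. For miR-27b it was 0.304 to 0.335% in adults, and 0.299% and 0.726% in the e13.5 wild type and knockout, so the ranges overlapped. For miR-24, with its 5p arms summed, it was 1.46 to 2.54% in adults and 3.97% and 2.77% at e13.5, both above all adults. For miR-23b it was 0.0397 to 0.135% in adults and 0.0439% and 0.264% at e13.5, from 2 and 3 counts of the 5p arm. For miR-23a it was 0.00799 to 0.0432% in adults and 0 at e13.5, where the counts allow up to 0.101% (wild type) and 0.348% (knockout).

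With 4 libraries against 2 there are 15 splits, so an exact permutation test cannot give a p below 0.0667. The 3 paralogue shares and the miR-27a arm share each gave that smallest two-sided exact p of 0.0667, and 0.133 after adjustment over the 8 shares tested. The remaining arm shares gave exact p-values of 0.133 (miR-23a and miR-24), 0.2 (miR-23b) and 0.333 (miR-27b). None passed 0.05. Arm shares also differed in much of the table: of 74 hairpins with both arms named alike and at least 500 counts in each library, 63.5% had 5p shares that did not overlap between stages. By change in the log2 ratio of 5p to 3p counts, miR-27a (5.02) ranked 9 of the 74, and by change in percentage points (14.3) it ranked 17.

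**Figure D3:**
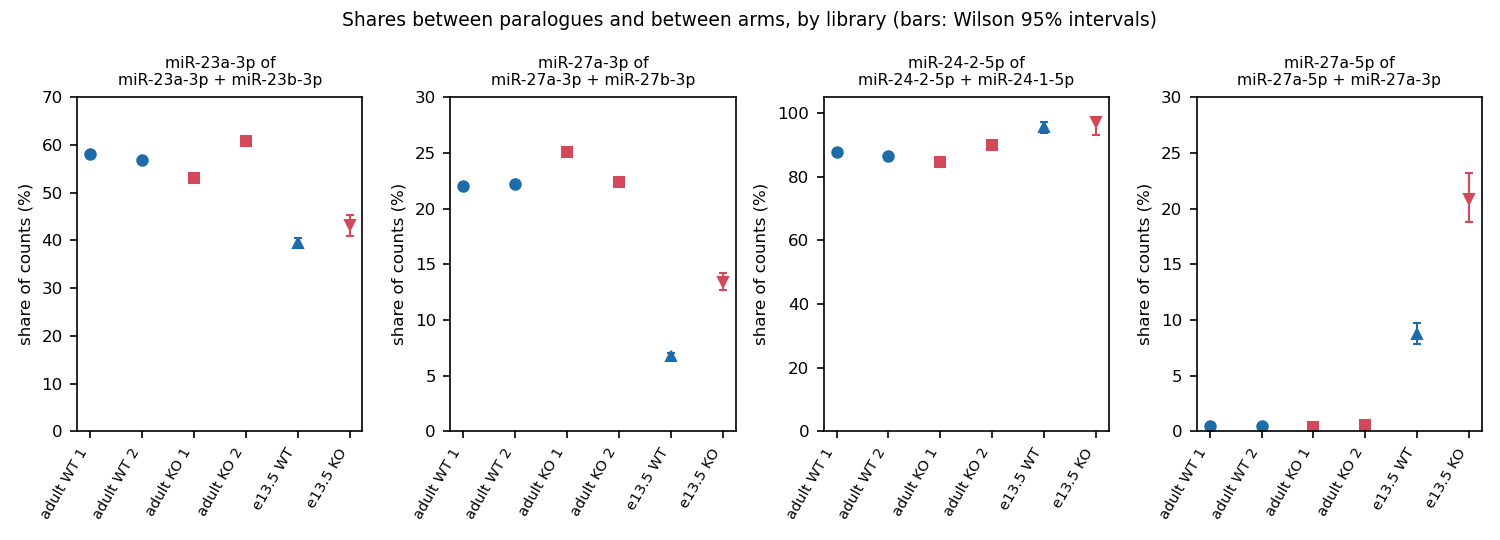
Share of counts in percent for the 3 paralogue pairs and for the arms of miR-27a in each library (WT, wild type; KO, knockout), with Wilson 95% intervals that cover counting error only. In each panel both e13.5 libraries lie outside the range of the 4 adult libraries, and the miR-27a-5p share is 8.73% and 20.9% at e13.5 against at most 0.560% in adults.

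Members cut from 1 primary transcript did not keep 1 ratio between stages, a description chosen after the values were seen. Counts of miR-27b-3p divided by those of miR-23b-3p gave 1.12 and 1.5 in adult wild types, 1.21 and 1.82 in adult knockouts, and at e13.5 8.79 (wild type) and 5.90 (knockout). Counts of miR-27a-3p divided by those of miR-23a-3p gave 0.227 and 0.324, 0.359 and 0.337, 0.980 and 1.20 in the same order. In both clusters miR-27 stood higher against miR-23 at e13.5, in 2 of 2 libraries.

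Both miR-24 hairpin rows of the deposited table contain the miR-24-3p reads, so they do not divide that arm between the loci. Over the 6 hairpins and 6 libraries, 0 to 34 counts of a hairpin row, at most 0.456% of it, were in none of its arm rows.

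The second comparison asked whether the clusters differ between lncSync knockout and wild-type adults (edgeR, 4 adult libraries, 544 miRNAs tested). None of the 11 members passed, none had an unadjusted p under 0.05, and DESeq2 and limma-voom called none either. Over all miRNAs 0.735% were called. The members' median log2 fold was 0.12, against 0.08 over all miRNAs.

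The log2 folds of knockout over wild type were 0.12 (SE 0.46) for miR-24-3p, 0.11 (SE 0.42) for miR-27b-3p, −0.11 (SE 0.40) for miR-23a-3p, −0.10 (SE 0.39) for miR-23b-3p and 0.22 (SE 0.42) for miR-27a-3p, each at an edgeR adjusted p of 0.999. These values lie within 1 SE of 0, and SEs of 0.39 to 0.46 leave room for moderate differences in either direction. With library totals the values of miR-24-3p and miR-27b-3p turned negative. On library totals the adult ranges of 1 of 11 arms did not overlap between genotypes, against 23.9% of all miRNAs tested. This was miR-23a-3p, its lowest wild type (16386 CPM) standing just above its highest knockout (16291 CPM). After TMM scaling it was instead miR-23b-3p and miR-23b-5p, 2 of 11, against 23.5% of all.

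The 5p arm of miR-23b had the largest estimate, 1.12 on the log2 scale (SE 0.66, edgeR adjusted p = 0.999). It had 106 and 83 counts in the wild types, 280 in knockout replicate 1 and 68 in knockout replicate 2. The knockouts thus lay on both sides of the wild types in CPM, at 19.52 and 3.86 against 5.91 and 4.94, whereas after TMM scaling both stood above them. Without knockout replicate 1 its log2 fold was 0.11 (edgeR adjusted p = 0.973). Without knockout replicate 2 it was 1.63 (edgeR adjusted p = 0.0438), with the spread then taken from the wild types, in a setting that called 7.29% of all miRNAs. Knockout replicate 1 was also the adult library highest in miR-451a (402 CPM against 45.1 to 107 in the others) and in miR-142a-3p (89.9 CPM against 4.05 to 17.1), whose part in this value was not tested. The summed leukocyte list set it less apart, at 0.280% of counts. That sum was 0.274% and 0.207% in the wild types and 0.177% in knockout replicate 2.

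**Figure D4:**
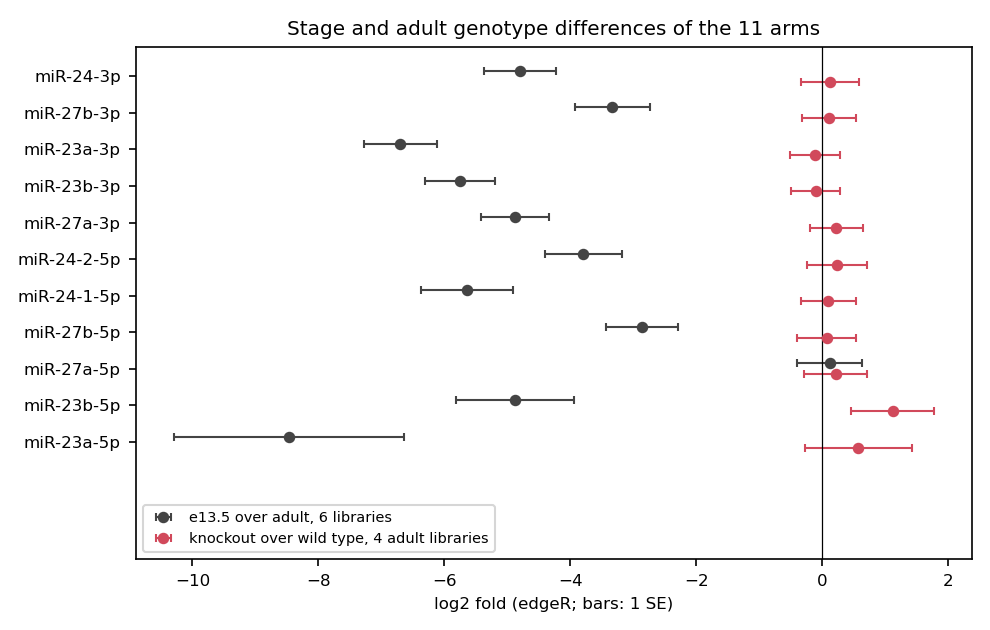
Log2 folds with 1 SE for the 11 arms: e13.5 over adult in grey and knockout over wild type among adults in red (edgeR). All stage folds but that of miR-27a-5p lie below −2, whereas the adult genotype folds lie between −0.11 and 1.12; the stage fold of miR-23a-5p, at 0 counts in both e13.5 libraries, depends on the prior count.

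With stage as a covariate and 3 libraries of each genotype, 0 of 11 members passed (edgeR, 679 miRNAs tested, 0.736% called), and none had an unadjusted p under 0.05 or was called by DESeq2 or limma-voom. The members' log2 folds ran from −0.50 to 1.14, with a median of −0.13 against −0.14 over all miRNAs. For the difference of the knockout effect between stages, 0 of 11 members and 0.0% of 769 miRNAs were called by edgeR. An unadjusted edgeR p under 0.05 was reached by 46 of the 769 miRNAs and by 0 members, and DESeq2 and limma-voom called 0 members. The spread comes from the adult replicates alone. miR-27b-3p had the smallest p among members (log2 difference −1.68, SE 0.80, edgeR adjusted p = 0.853). Without adult knockout replicate 1 it passed, with a log2 difference of −1.95 (edgeR adjusted p = 0.00262). In that setting the spread came from the adult wild types alone, and 1 of 11 members was called against 11.8% of all miRNAs.

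At e13.5 each genotype had 1 library, so differences there have no replicate check and no test. After TMM scaling, 177 of 565 miRNAs were at least 2-fold lower in the knockout and 98 were higher, 48.7% in either direction. Of the 9 members with at least 10 counts in either library, 4 were lower by this rule and 0 were higher. The lower ones were miR-27b-3p at a log2 ratio of −1.64 (95% counting interval −1.68 to −1.60), miR-24-1-5p at −1.42 (−3.54 to −0.02), miR-23b-3p at −1.06 (−1.16 to −0.97) and miR-24-2-5p at −1.02 (−1.29 to −0.76). The count followed the scaling. With library totals 0 members were 2-fold lower and 1 was higher, namely miR-27a-5p at 1.71 (1.48 to 1.97). Of the 565 miRNAs, 77 were then lower and 173 higher. The median over all 565 miRNAs was −0.41 with TMM and 0.36 with library totals.

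Patterns over the 6 libraries were compared by Pearson's r of log2(TMM-scaled CPM + 1), among 156 other miRNAs with a mean of at least 100 CPM. Closest to miR-23a-3p were miR-22-5p (r = 0.9997), miR-29a-3p (0.9995) and miR-151-5p (0.9989). Closest to miR-23b-3p were miR-151-5p (0.9995), miR-22-5p (0.9992) and miR-133b-3p (0.9987). Both miR-23 forms thus shared miR-22-5p and miR-151-5p.

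Nearest to miR-24-3p were miR-30a-3p (r = 0.9995), miR-98-5p (0.9986) and let-7f-5p (0.9976). For miR-27a-3p they were miR-133a-3p (0.9987), miR-30a-3p (0.9984) and miR-16-5p (0.9982), and for miR-27b-3p they were miR-194-5p (0.9946), miR-145a-5p (0.9925) and miR-30b-5p (0.9922). These correlations are descriptions over 6 libraries that fall into 2 stages, with the embryonic ones shallower, and r within a stage was not computed. With library totals 6 of the 15 neighbours were the same.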

How the data were processed

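Small RNA was sequenced from 6 libraries of mouse heart cardiomyocytes, made from DNase-treated total RNA with a NEXTFLEX kit, per the labels' protocols. The authors' deposited table gives raw counts for each miRNA in whole numbers, 1 column per library. The submitters' processing notes name the build mm10. Not given in the sources used here were the aligner, the counter and the treatment of multiply matching reads. The table held 1234 hairpin and 1974 mature rows, and 0 columns of other samples. Mature rows were used. A row with at least 20 counts whose values differed from those of another by at most 1% in sum was taken as the same reads; 22 were merged this way, none of them a member, which left 1952.

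The two-sided quasi-likelihood test of edgeR 4.0.16 (R 4.3.3) was run on counts scaled by TMM and filtered by filterByExpr (minimum count 10), with Benjamini-Hochberg adjustment over all miRNAs and a threshold of 0.05. The SE of a log2 fold is its size divided by the square root of the F statistic. Stage and genotype over both stages used an additive model of all 6 libraries (3 residual degrees of freedom), adult genotype the 4 adult libraries with 2, and the interaction 4 group means with 2. The common biological coefficient of variation was 0.613, 0.537 and 0.628 in these fits. TMM factors ran from 0.5674 to 2.166 over the 6 libraries. Log2 ratios at e13.5 used a prior count of 2. Shares were compared by exact permutation over libraries (Python 3.11.15). The fits were also run on simulated counts with less spread than these libraries, which cannot show how they perform here. DESeq2 1.42.0, limma 3.58.1 (voom), other scaling, no filter, unmerged rows, left-out libraries, a replicate block and single genotypes were tried as alternatives.

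The named miRNAs were all members, the 3 miRNAs most like each 3p arm, those sharing a 3p seed, and the fixed lists, of which the text names those that were higher and examples of the others, picked after their values were seen. Members and lists were chosen with earlier results of these data known. The adult replicate numbers are shared between genotypes.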

Additional observations from a re-analysis of the deposited data

How the results depend on the processing

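The 10 members lower at e13.5 were called in all settings run except the knockout libraries alone, where 7 were. Counts of calls over all miRNAs between stages were 392, with 261 to 381 when 1 library was left out and 231 with knockout libraries alone. miR-27a-5p was at −0.28 with wild-type libraries alone and at −0.28 to 0.74 with 1 library left out. Among adults, 0 to 1 members were called when 1 library was left out. Over all miRNAs the adult count was 4, with 9 without a filter, 0 by limma-voom (12 at an unadjusted p under 0.05) and 5 to 47 with 1 library left out (35 without knockout replicate 1 and 47 without replicate 2). With library totals the adult log2 folds turned to −0.10 for miR-24-1-5p, −0.0377 for miR-24-3p, −0.0607 for miR-24-2-5p, −0.0431 for miR-27a-5p, −0.17 for miR-27b-5p and −0.12 for miR-27b-3p. With 1 library left out the adult folds ran from −0.60 to 1.49 for miR-23a-5p, −0.40 to 0.0727 for miR-23a-3p, 0.113 to 1.63 for miR-23b-5p, −0.22 to −0.12 for miR-23b-3p, −0.0848 to 0.21 for miR-24-1-5p, −0.31 to 0.58 for miR-24-3p, −0.38 to 0.63 for miR-24-2-5p, −0.27 to 0.54 for miR-27a-5p, −0.00052 to 0.37 for miR-27a-3p, −0.32 to 0.34 for miR-27b-5p and −0.24 to 0.35 for miR-27b-3p. Genotype over both stages gave 5 calls, and 3 to 5 with 1 library left out. The interaction gave 0, with 1 by library totals, 2 without a filter, 4 by DESeq2 and 0 to 87 with 1 adult library left out (87 without knockout replicate 1, 40 without replicate 2, and 0 to 1 among members). It could not be fitted without an e13.5 library. At e13.5, 1 member was 2-fold apart with library totals in place of 4. The arm share differences with 1 library left out were −0.0216 to 0.198 points for miR-23b-5p and −0.0174 to 0.410 for miR-27b-5p, the latter −0.0213 with wild-type libraries alone. Paralogue share differences kept their direction in each setting run, at −17.8 to −14.1 points for miR-23a-3p, −16.2 to −9.53 for miR-27a-3p and 8.43 to 10.2 for miR-24-2-5p with 1 library left out. Hairpin rows could not give the miR-24 share. The pattern neighbours kept 6 of 15 with library totals. The causes were not tested.

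With the adult replicate number as a block, 10 members were called between stages, 0 in adults and 0 over both stages, with 331, 5 and 5 calls over all miRNAs, and no member's call changed. The e13.5 libraries carry no such number and were coded with adult replicate 1. The blocked stage contrast was therefore against adult replicate 1 and not all adults. Deviations of same-numbered adult libraries from their group means had r = 0.00242 over 544 miRNAs. With 2 libraries per genotype this cannot settle whether the number marks a shared batch, which the labels do not give. Depth limits the miR-23 5p arms and miR-24-1-5p at e13.5, where counts were 0 to 25.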
